A study of Mus musculus with 4 samples.

Results

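The cells described here are Inhba-high granulosa cells of the mouse ovary that carried mRNA of the chemokines Cxcl1 and Cxcl2. They came from single-cell RNA sequencing of whole ovaries, with 2 Fosl2F/F and 2 Fosl2cKO libraries. All mice were 8-week-old females of the same litter carrying the Fosl2flox/flox allele, and the Fosl2cKO mice also carried Cyp19a1-Cre, which acts in granulosa cells that express aromatase. With n = 2 in each group the libraries may be 1 animal each, but no source used here ties a library to an animal, so the tests measure the spread between libraries, which may be technical. A barcode was a member if it had at least 500 detected genes, over 1000 unique molecular identifiers (UMIs, 1 for each captured transcript) and under 10% mitochondrial UMIs, at least 10 Inhba UMIs per 10000 UMIs, and at least 2 UMIs of Cxcl1 and Cxcl2 together. The rule also used markers of cycling cells (Top2a, Mki67, Ube2c, Prc1, Aurkb), stromal cells (Dcn, Col1a2, Lum, Lama2) and myeloid cells (Lyz2, C1qa, C1qb, Tyrobp). Barcodes with 2 or more detected markers of any 1 of these sets were left out. Before this step 1666 and 1757 Fosl2F/F and 545 and 459 Fosl2cKO barcodes met the other criteria. Of all 3196, 2676, 623 and 779 Inhba-high barcodes, 1336, 1297, 357 and 466 were left out, mostly on cycling markers. The rule found 2107 members among 47782 barcodes past the filters and 57109 barcodes in all, with 857 and 858 from Fosl2F/F and 223 and 169 from Fosl2cKO ovaries, in the order of the replicate numbers used throughout. The members were selected on measured levels of Inhba, Cxcl1 and Cxcl2, so the levels of these genes are given as a description.

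Mural granulosa cells line the wall of the antral follicle, convert androgens to estradiol and respond to follicle-stimulating and luteinizing hormone. Inhba encodes the subunit shared by activin A and inhibin A. Cxcl1 and Cxcl2 are secreted ligands of the receptor Cxcr2 and draw neutrophils into tissue. Their transcription is a textbook response to NF-kB, a family of dimeric transcription factors held in the cytoplasm by inhibitors such as the product of Nfkbia. Active NF-kB also induces Nfkbia, Tnfaip3 and Birc3, the first 2 of which feed back to end the signal.

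Cxcl1 and Cxcl2 are neighbours on chromosome 5. In the GENCODE M21 annotation of GRCm38, Cxcl1 (ENSMUSG00000029380) spans chr5:90891241-90893115 on the forward strand, and Cxcl2 (ENSMUSG00000058427) starts 10755 bases beyond its end and spans chr5:90903871-90905938 on the same strand. Their annotated transcripts share no stretch of 50 bases, so reads of the pair could be told apart. The promoters of the pair are shown because both hold the same 9-letter NF-kB core, GGAATTTCC, and they are set beside those of Nfkbia and Cxcl10, which also held it and were higher in the members. Each line gives the 250 bases before the start site in RefSeq on GRCm38.p6, read 5′ to 3′ along the strand of the gene, with the core in capitals on either strand.
Cxcl1: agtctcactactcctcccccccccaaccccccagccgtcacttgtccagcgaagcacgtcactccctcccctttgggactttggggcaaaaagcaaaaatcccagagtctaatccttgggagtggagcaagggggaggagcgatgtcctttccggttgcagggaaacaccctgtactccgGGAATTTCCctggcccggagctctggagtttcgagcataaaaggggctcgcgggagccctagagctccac
Cxcl2: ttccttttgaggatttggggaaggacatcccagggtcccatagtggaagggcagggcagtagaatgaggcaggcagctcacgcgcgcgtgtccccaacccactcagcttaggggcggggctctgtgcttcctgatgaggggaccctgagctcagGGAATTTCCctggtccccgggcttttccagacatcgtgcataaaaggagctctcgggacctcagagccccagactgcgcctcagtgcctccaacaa
Nfkbia: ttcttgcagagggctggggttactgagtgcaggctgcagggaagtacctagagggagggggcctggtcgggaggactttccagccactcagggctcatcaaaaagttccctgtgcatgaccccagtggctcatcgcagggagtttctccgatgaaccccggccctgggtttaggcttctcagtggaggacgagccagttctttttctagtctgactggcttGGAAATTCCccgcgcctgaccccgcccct
Cxcl10: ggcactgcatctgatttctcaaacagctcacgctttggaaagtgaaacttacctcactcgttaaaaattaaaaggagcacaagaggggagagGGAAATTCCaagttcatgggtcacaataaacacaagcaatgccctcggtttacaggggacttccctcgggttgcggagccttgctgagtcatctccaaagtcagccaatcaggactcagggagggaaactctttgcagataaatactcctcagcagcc
These windows are chr5:90890995-90891244 (+) for Cxcl1, chr5:90903649-90903898 (+) for Cxcl2, chr12:55492648-55492897 (-) for Nfkbia and chr5:92348890-92349139 (-) for Cxcl10. The core began 70 bases before the start site in Cxcl1 and 96 bases before it in Cxcl2, on the forward strand in both. It lay on the opposite strand in Nfkbia, 29 bases before the start, and in Cxcl10, 158 bases before it. Among the 27025 genes with a promoter in the table, 93 (0.344%) held this core on either strand. A looser form, GGNNNTTCC, was held by 17.6% of all genes, and it includes every match of the strict form. The AP-1 motif TGANTCA was present in the Cxcl10 window and in neither the Cxcl1 nor the Cxcl2 window, against 7.82% of all genes. The strict core was chosen after these promoters had been read, and a match is a description of letters, not of binding.

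Within the members, Cxcl1 gave more UMIs than Cxcl2 in all 4 libraries. Fosl2F/F members held 6232 and 3562 Cxcl1 UMIs beside 3425 and 2133 of Cxcl2, and Fosl2cKO members 2707 and 1367 beside 1537 and 559. Both genes were detected in 56.0% and 63.4% of Fosl2F/F members and in 73.5% and 49.7% of Fosl2cKO members. Most of the rest carried Cxcl1 alone, with 327, 260, 57 and 77 cells, and Cxcl2 alone was seen in 50, 54, 2 and 8 cells.

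The chemokine load was uneven among the members. Their median was 6, 5, 15 and 7 UMIs of the pair per cell, and the highest cell of each library held 121, 64, 115 and 86. The richest 10% of the cells held 30.7% to 38.9% of these UMIs in each library. At the threshold, 346 members had exactly 2 UMIs and 583 otherwise similar cells had exactly 1. On the Inhba side, 57 members had 10 to 11 Inhba UMIs per 10000 and 38 cells fell just short, at 9 to 10.

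The other neutrophil-attracting ligands of the same cluster were rare. Cxcl3 had 40 UMIs among the 23383538 UMIs of the members and Cxcl5 also had 40, and neither had any among the 9397379 UMIs of Inhba-high cells without Cxcl1 or Cxcl2. Most came from Fosl2F/F replicate 1, with 29, 7, 2 and 2 Cxcl3 UMIs and 23, 10, 6 and 1 Cxcl5 UMIs in Fosl2F/F replicates 1 and 2 and Fosl2cKO replicates 1 and 2, and no fold is given at these counts. Cxcl3 shares 126 stretches of 50 bases with Cxcl2, so its UMIs are uncertain, while Cxcl5 shares none with the other 3 genes. Ppbp and Cxcl15 had 0 UMIs in both kinds of cell.

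The identity of the cells was checked against granulosa markers. After each cell was thinned to 2000 UMIs, Inha, the inhibin alpha subunit, was present in an expected 100% of the members in every library. Fshr, the receptor of follicle-stimulating hormone, was present in 58.8% and 39.0% of Fosl2F/F members and in 21.9% and 68.6% of Fosl2cKO members. Cyp19a1, which encodes aromatase, was present in 39.8%, 20.7%, 13% and 17.6%, and Lhcgr, the luteinizing hormone receptor, in 36.0%, 27.5%, 19.4% and 14.3%. Amh, a product of smaller growing follicles, was present in 1.36% to 7.69%. Over all Inhba-high cells, Cyp19a1 stood at 82.6 to 383 UPM (UMIs per 1000000 UMIs summed over the class, with no further scaling), against 7.57 to 10.0 in granulosa cells that did not meet the Inhba criterion. Lhcgr did not separate these classes, with 95.6 to 477 UPM in Inhba-high cells and 85.4 to 481 in the other granulosa cells. Cyp11a1 was lower in Inhba-high cells in every library, at 614, 578, 473 and 111 UPM against 1367, 2938, 1776 and 1390. Amhr2 was also lower, at 87.3, 84.2, 127 and 78.0 UPM against 158, 131, 152 and 123. Of the remaining listed mural markers, Fshr, Inha, Gabrb2 and Rhox8 were higher in every library. Prlr, Nckap5, Pappa and Foxl2 differed in direction between libraries. No luteal marker was used in choosing the other granulosa cells. They were chosen on detected granulosa markers, whereas Inhba-high cells were not. Markers used in that choice, which may include Amhr2, Foxl2, Fshr and Inha, can be raised in the other granulosa cells by the choice itself. The lower Amhr2 of Inhba-high cells may thus be partly built in. The comparisons of Amhr2, Foxl2, Fshr and Inha between these classes are only a description.

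Of the proposed markers of these cells, Gsta4, a glutathione transferase, marked Inhba-high cells as a whole rather than the members. It stood at 241 to 472 UPM in Inhba-high cells and at 39.0 to 54.8 in other granulosa cells. In the members it stood at 483, 256, 249 and 347 CPM (counts per 1000000, scaled by TMM between the sums of cells), and in Inhba-high cells without Cxcl1 or Cxcl2 at 504, 217, 123 and 393, so the order differed between libraries. Icam1, an adhesion receptor for leukocytes, was higher in the members in every library, at 21.7, 51.1, 78.4 and 28.2 CPM against 8.49, 15.5, 20.5 and 8.72. Over all Inhba-high cells it stood at 15.7 to 72.1 UPM, below the 189 to 440 of stromal cells and the 140 to 310 of endothelial cells. Icam1 did not separate Inhba-high from other granulosa cells in every library, at 15.7, 41.0, 72.1 and 19.7 UPM against 15.4, 26.5, 45.4 and 23.9. Both genes had been proposed with results of these data known, so no test is given for them.

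Across the ovary the levels of the pair differed between classes of cells. Cxcl1 stood at 301 and 525 UPM in Fosl2F/F Inhba-high cells and at 635 and 285 in Fosl2cKO Inhba-high cells. This was above the other granulosa cells of the same library in all 4, where it stood at 128, 176, 271 and 230. By count, other granulosa cells held more Cxcl1 UMIs in all but Fosl2F/F replicate 1, at 4418, 6980, 10385 and 8069 against 6445, 3724, 2720 and 1401. Cxcl2 stood at 164, 309, 359 and 115 in Inhba-high cells and at 54.9 to 82.9 in other granulosa cells. Myeloid cells showed the opposite balance, with 53.2 to 150 UPM of Cxcl1 and 1498 to 2180 of Cxcl2. The ratio of Cxcl1 to Cxcl2 UMIs was 1.67 to 2.45 in the members, 1.70 to 2.47 in all Inhba-high cells and 0.0355 to 0.0712 in myeloid cells. A further 2407, 8338, 2746 and 2907 barcodes were left unassigned, with 111 to 197 UPM of Cxcl1 and 72.6 to 132 of Cxcl2. T and NK cells, which should lack Cxcl1, held 3.28 to 45.2 UPM of Cxcl1. Of them, 1.27% to 8.11% met the criterion of 2 UMIs, at median depths of 1444.5 to 3568 UMIs against 4396 to 15666 in Inhba-high cells. In T and NK cells Cxcl2 stood at 133, 414, 19.9 and 253 UPM, above Inhba-high cells in Fosl2F/F replicate 2 and Fosl2cKO replicate 2. The criterion was met by 28.5%, 23.9%, 49.6% and 44.6% of other granulosa cells, against 46.1%, 62.2%, 83.8% and 54.0% of Inhba-high cells. Shares were 44.1% to 66.0% in myeloid, 8.39% to 27.2% in stromal and 11.8% to 24.7% in endothelial cells.

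**Figure D1:**
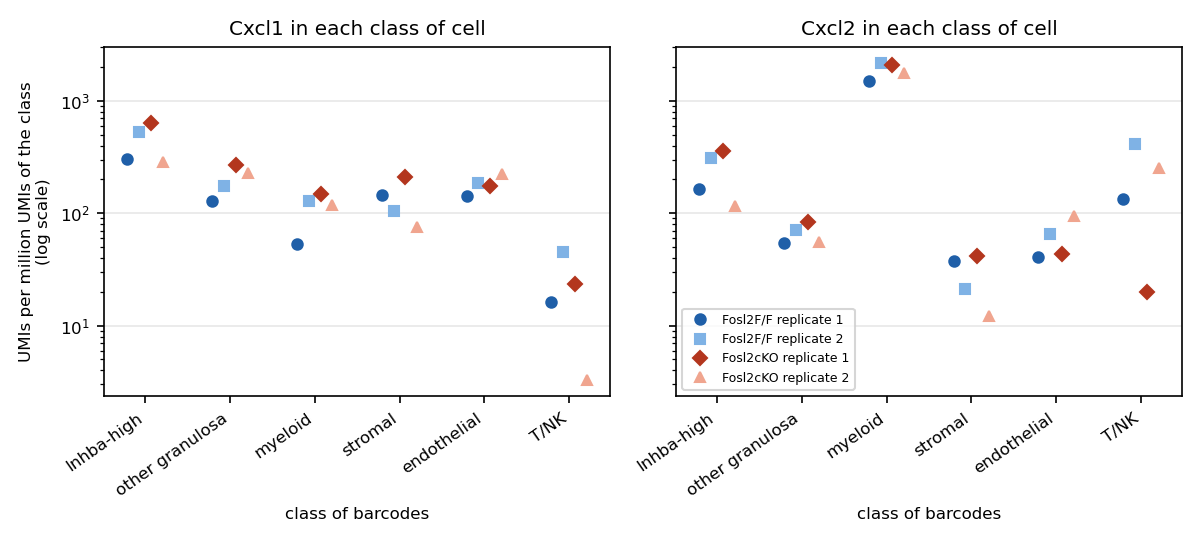
Cxcl1 (left) and Cxcl2 (right) in 6 classes of barcodes, as UMIs per 1000000 UMIs (UPM) on a log axis, with 1 point per library. Barcodes that fell in none of these classes are not drawn. Inhba-high cells held 285 to 635 UPM of Cxcl1, the highest of the classes shown in each library, and myeloid cells held the most Cxcl2, 1498 to 2180.

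Next, the members were compared with Inhba-high cells that had no Cxcl1 or Cxcl2 UMI, to ask what else set them apart within a library. Fosl2F/F ovaries gave 702 and 296 such comparison cells, and Fosl2cKO ovaries 28 and 102. The members were deeper, with median UMIs of 12367, 5001, 15744 and 16312 against 9115.5, 3389, 10879.5 and 14234.5, and their median mitochondrial share was 2.83% to 3.17% against 2.83% to 3.82%. Scrublet marked 3.03%, 11.1%, 1.35% and 0% of the members as doublets, and 7.69%, 12.2%, 0% and 0.98% of the comparison cells. UMIs were summed per library and kind of cell, and the quasi-likelihood test of edgeR was run with the library as a block. To pass, a gene needed a Benjamini-Hochberg adjusted p below 0.1 together with a log2 difference beyond 0.25 in either direction. Of 11553 genes tested, 201 (1.74%) were higher and 51 (0.441%) were lower in the members, and the median log2 fold change over all genes was -0.0028. In 9.95% of the tested genes the members were higher in all 4 libraries, and in 7.9% they were lower in all 4. Of the genes that passed, 176 of the 201 and 37 of the 51 had the same direction in all 4 libraries. The count of 252 rested on single libraries, with 50 without Fosl2F/F replicate 1, 135 without Fosl2F/F replicate 2, 83 without Fosl2cKO replicate 2 and 602 without Fosl2cKO replicate 1.

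Genes of the NF-kB system were among those that rose in the members. Of 19 listed components 17 were tested, 7 were higher and none was lower, with a median log2 fold change of 0.47. The share that was higher over all tested genes was 1.74%. Nfkbia, which encodes the inhibitor of NF-kB, stood at 950.3, 1116, 1202 and 802 CPM in the members and at 406, 826, 786 and 365 in the comparison cells. Its difference was 0.87 ± 0.10 on the log2 scale (SE, 4 libraries, edgeR adjusted p = 0.000202), higher in 4 of 4 libraries. Tnfaip3, a deubiquitinase that ends NF-kB signalling, stood at 23.8, 38.9, 42.6 and 28.5 CPM against 10.7, 23.2, 23.9 and 20.4 (log2 fold change 0.88 ± 0.15, edgeR adjusted p = 0.00622). Among the factors themselves, Nfkb1 (0.65 ± 0.13), Relb (0.61 ± 0.14) and Rel (0.47 ± 0.08) were higher, with Relb higher in 3 of 4 libraries. Rela, the subunit that is mostly regulated by its location in the cell, stood at 29.7 to 36.4 CPM against 29.9 to 51.3 (0.01 ± 0.14). Nfkbiz and Tnip1, an atypical inhibitor and a partner of Tnfaip3, each differed by 0.49. Without Fosl2F/F replicate 1, Nfkbia passed and the other 6 did not, and without Fosl2cKO replicate 2 Nfkb1, Relb and Tnip1 did not. Tnip1 was also lost without Fosl2F/F replicate 2.

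Of 24 listed NF-kB targets, 16 were tested apart from Icam1, 4 were higher and none was lower, with a median log2 fold change of 0.36. Among all tested genes 1.74% were higher. Birc3, an inhibitor of apoptosis, stood at 38.8, 74.5, 103 and 39.5 CPM in the members against 12.9, 37.8, 27.3 and 13.1 (1.44 ± 0.14 on the log2 scale, edgeR adjusted p = 2.52e-05). Birc3 was higher in the members of 4 of 4 libraries. Irf1, a transcription factor of the interferon response, differed by 0.87 ± 0.10 and Gadd45b, a stress-induced regulator of kinase signalling, by 0.70 ± 0.09, both higher in 4 of 4 libraries. Ier3 differed by 0.59 ± 0.10, with no rise in Fosl2cKO replicate 1, where it stood at 233 CPM in the members and 232 in the comparison cells. Sod2, the mitochondrial superoxide dismutase, did not pass (0.13 ± 0.08). Of the receptors and adaptors listed upstream of NF-kB, 1 of 11 tested was higher, the kinase Ripk1 (0.40 ± 0.10). Ier3 no longer passed without Fosl2F/F replicate 1, and Ripk1 was lost without that library, Fosl2F/F replicate 2 or Fosl2cKO replicate 2. Tlr2, Tlr3, Tlr4, Cd14 and Tnfrsf1b were too low to be tested.

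The strict NF-kB core was held by 32 of the 9121 tested genes with a promoter (0.351%) and by 6 of the 160 such genes that were higher in the members (3.75%). These 6 were Cxcl10, Dusp6, Ier3, Nfkbia, Tnfaip3 and Trio. The promoters of Cxcl10, Nfkbia and Tnfaip3 were among those read when the core was chosen, so these shares in part restate that choice. The looser form was held by 21.2% of the tested genes and 28.7% of those that were higher, and the AP-1 motif by 4.91% and 6.88%. The Icam1 window also held the strict core, while none was found in the windows of Birc3, Irf1 or Inhba.

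Cxcl10 had the largest rise of all genes named by the rule. It encodes a ligand of Cxcr3, which draws T cells, and lies on the same chromosome at chr5:92346638-92348889. It stood at 112, 136, 133 and 62.5 CPM in the members against 26.1, 67.9, 10.3 and 24.7 (1.72 ± 0.17 on the log2 scale, edgeR adjusted p = 3.35e-05). The ratio was highest in Fosl2cKO replicate 1, whose 28 comparison cells are the fewest. Over all Inhba-high cells Cxcl10 stood at 45.3 to 126 UPM, below the 193 to 575 of stromal and the 318 to 600 of endothelial cells. Tnfaip3 stood at 18.1 to 41.8 UPM in Inhba-high cells, 193 to 410 in myeloid cells and 695 to 1279 in T and NK cells. Birc3 and Irf1 were lower in Inhba-high than in stromal cells in every library. Cxcl10 was the only 1 of 10 tested chemokines outside the Cxcl1 cluster that passed, beside 1.74% of all tested genes that were higher. Of 16 listed cytokines, 3 were frequent enough to be tested and none passed, and Il6, Il1b and Tnf each stood below 3 UPM in the members.

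Immediate early genes, which are transcribed within minutes of a stimulus and include the subunits of AP-1, were the next list. All 22 listed genes were tested, 12 were higher, none was lower, and the median log2 fold change was 0.39. In 18 of the 22 the members were higher in all 4 libraries. Over all tested genes, 1.74% passed as higher and 9.95% were higher in all 4 libraries. Junb stood at 1226, 848, 1060.1 and 530.4 CPM in the members against 881, 620, 708 and 346 (0.52 ± 0.06, edgeR adjusted p = 0.000202). Fos, at 1936 to 2931 CPM in the members, differed by 0.40 ± 0.06. Egr3 had the largest difference of the list (1.13 ± 0.18), and Zfp36, whose product destabilizes cytokine mRNAs, differed by 0.62 ± 0.08. Egr1, Nr4a1, Btg2, Klf6, Dusp1, Fosb, Ier2 and Jun differed by 0.31 to 0.51. Fosl2, the AP-1 subunit targeted in the mutant, did not pass (0.06 ± 0.09). Of 11 heat shock genes 1 was higher (Dnajb1, 0.38 ± 0.08), with a median of 0.05 over the list. The part of the immediate early genes in the other differences was not tested. Depth also moved with the chemokines, and with both kinds of cell matched on depth 205 genes were higher and 68 lower, Nfkbia, Birc3, Cxcl10 and Junb among the higher. Without Fosl2F/F replicate 1, Egr3, Klf6, Ier2, Jun, Dusp1 and Dnajb1 no longer passed, Fosb and Dusp1 were lost without Fosl2F/F replicate 2, and Ier2, Jun, Dusp1 and Btg2 without Fosl2cKO replicate 2. Dusp1 was also lost once barcodes marked as doublets and those rich in hemoglobin were removed together (0.32, edgeR adjusted p = 0.176).

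Outside these lists, Grk5, a kinase that desensitizes G protein-coupled receptors, differed by 1.0 ± 0.09 (edgeR adjusted p = 1.05e-05), at 107, 222, 219 and 97.2 CPM against 48.8, 120.3, 126 and 48.0. Gm20186, a long noncoding RNA gene at chr6:18845910-18848207, differed by 1.23 ± 0.13. F3, the tissue factor that starts coagulation, differed by 0.84 ± 0.12, and Noct, a rhythmic gene of energy metabolism, by 0.82 ± 0.12. Kcng3, a modifier subunit of potassium channels, Mex3a, an RNA-binding protein, Angptl1, Sertad2, Man1a and Ppp1r18 differed by 0.77 to 0.92. Among other listed genes, the activin receptor gene Acvr2a (0.43 ± 0.10), the pro-apoptotic Bcl2l11 (0.58 ± 0.12) and Foxo3 (0.30 ± 0.07) were higher. Without Fosl2F/F replicate 1 or Fosl2cKO replicate 2 none of these 3 passed, Acvr2a and Foxo3 were also lost without Fosl2F/F replicate 2, and Kcng3, F3 and Ppp1r18 were lost without the former.

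**Figure D2:**
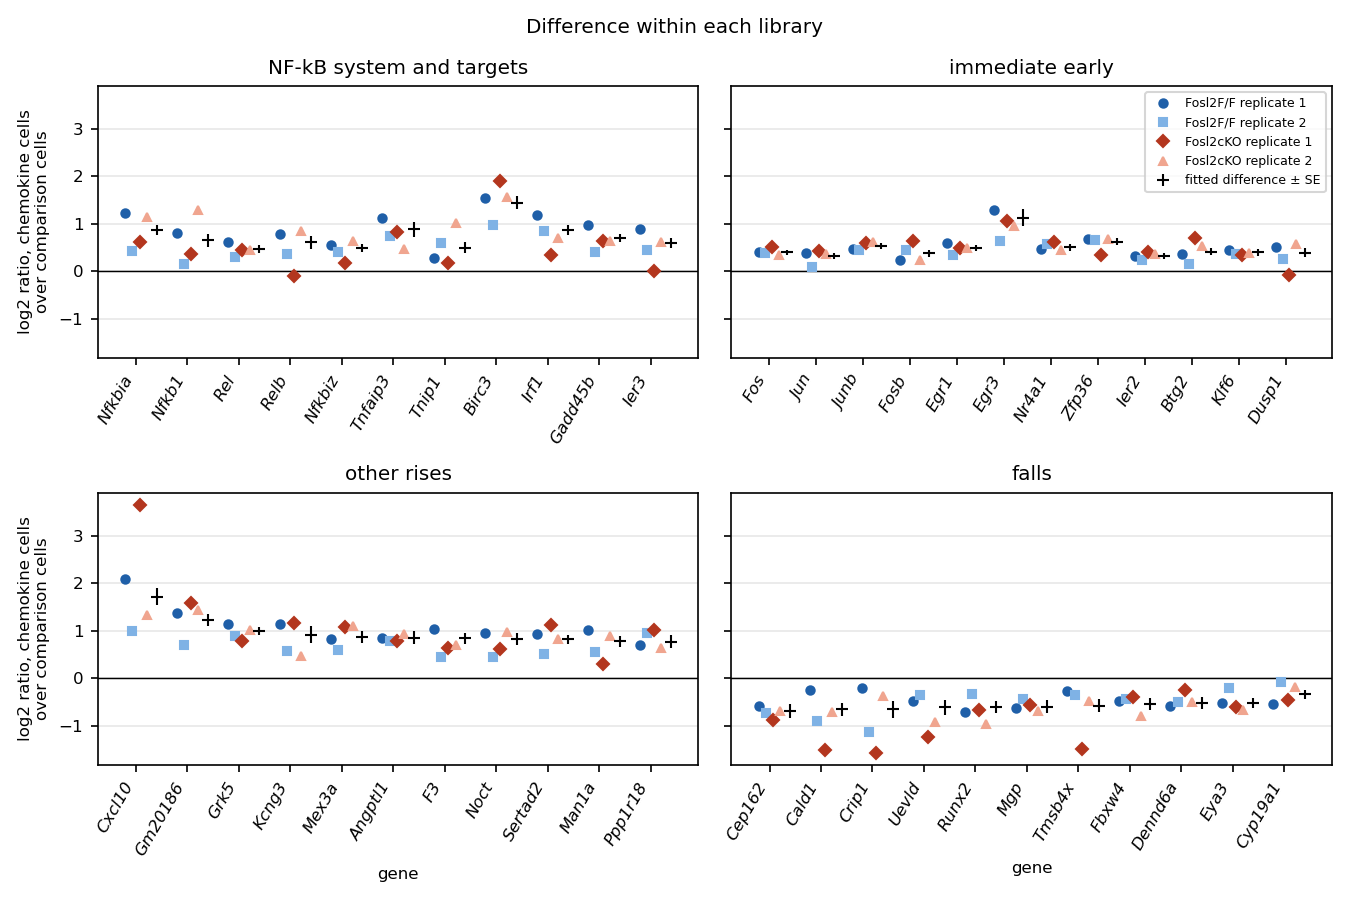
Log2 ratio of the level in chemokine cells over comparison cells for each library (coloured points) and the fitted difference with its SE (black), for named genes in 4 groups. Points above 0 are higher in the chemokine cells, and Relb and Dusp1 each have 1 library below 0.

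Of the differentiation genes of mural cells, 1 passed. Of 20 listed genes, 19 were tested apart from Inhba, none was higher and 1 was lower, with a median log2 fold change of -0.13. Over all tested genes, 1.74% passed as higher and 0.441% as lower, the shares to set beside each list here. The gene that fell was Cyp19a1, at 344, 127, 82.3 and 133 CPM in the members against 503, 134, 113 and 152 (fell by 0.35 on the log2 scale, SE 0.09, edgeR adjusted p = 0.0716). It passed in 7 of 15 alternatives and was lost, among others, without Fosl2F/F replicate 1, without Fosl2cKO replicate 2, with DESeq2 and with the joint removal of doublets and hemoglobin-rich barcodes. With that removal the fold was about the same (-0.343, edgeR adjusted p = 0.109). Lhcgr stood at 407, 235, 141 and 88.6 CPM against 621, 254, 51.3 and 119 and did not pass (edgeR adjusted p = 0.493). Inhba itself, on which both kinds of cell were selected, stood at 4655, 2887, 3113 and 2902 CPM in the members and at 5462, 2892, 2417 and 3460.4 in the comparison cells. Of 11 tested genes of the ovulatory response 1 was lower, the transcription factor Runx2 (-0.61 ± 0.12), and Ptgs2, Has2, Ptx3 and Pgr were too low to be tested. Sparcl1 was lower among 10 luteal genes (-1.22 ± 0.22). None of 10 tested antioxidant genes and none of 10 interferon and antigen presentation genes passed, with median log2 fold changes of 0.07 and 0.09.

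Among genes averaging at least 20 CPM with 1 direction in all 4 libraries, the largest falls were 0.52 to 0.69 on the log2 scale. The actin-associated genes Cald1 (-0.66 ± 0.14) and Tmsb4x (-0.58 ± 0.13) fell in 4 of 4 libraries, with Tmsb4x at 292, 372, 249.8 and 119.5 CPM against 353, 475, 701 and 167. Cep162, a centriolar protein, fell by 0.69 on the log2 scale, and Crip1, Uevld, Mgp, Fbxw4, Dennd6a and Eya3 by 0.52 to 0.65. Several of these are also genes of stromal or muscle cells. Acta2, which marks pericytes and smooth muscle, was lower (-0.76 ± 0.17) in 3 of 4 libraries, and the summed level of 4 pericyte markers was 19.8 to 70.6 UPM in the members and 35.6 to 163 in the comparison cells. Summed stromal markers stood at 50.3 to 107 against 56.4 to 121, and myeloid markers at 27.8 to 63.2 against 43.5 to 56.1. Within a library the pericyte and stromal sums were lower in the members each time, and the myeloid sum in all but Fosl2F/F replicate 2. The stromal and myeloid sums include the markers on which the rule left barcodes out of both kinds of cell. That limit weighs more on deeper cells, and the members were deeper, so the stromal and myeloid sums are only a description. All 10 of the largest falls, and Cyp19a1, were lost without Fosl2cKO replicate 2. Without Fosl2F/F replicate 1, Cep162, Uevld, Runx2, Mgp, Fbxw4, Dennd6a, Eya3, Cyp19a1, Sparcl1 and Acta2 were lost. Cep162, Cald1, Crip1, Uevld, Mgp, Fbxw4, Dennd6a and Acta2 were lost without Fosl2F/F replicate 2. With doublets and hemoglobin-rich barcodes removed together, Cald1, Crip1, Runx2, Mgp, Cyp19a1, Sparcl1 and Acta2 no longer passed. Cyp19a1 kept about the same fold (-0.343), and Mgp moved to -0.020. The folds of the others were then -0.491 (Cald1), -0.474 (Crip1), -0.46 (Runx2), -0.837 (Sparcl1) and -0.629 (Acta2). Of the theca genes, Cyp17a1 was higher (0.80 ± 0.17) in 3 of 4 libraries. It no longer passed with that joint removal, without either Fosl2F/F replicate or with DESeq2.

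Summed neutrophil markers stood at 0.52 to 7.85 UPM in the members and at 0.73 to 3.52 in the comparison cells. No marker of the lists for other cell types was at 0 over all members. The remaining lists were summed in the same way, and T and NK markers gave 1.02 to 8.85 in the members against 0.73 to 14.1, endothelial markers 20.1 to 54.9 against 24.0 to 61.2, theca markers 178 to 415 against 197 to 502, and erythroid markers 1.02 to 7.71 against 0.73 to 8.82. Epithelial markers gave 3.75 to 33.6 against 7.27 to 43.1, oocyte markers 4.46 to 51.5 against 3.52 to 101, and cycling markers 40.9 to 73.3 against 46.5 to 71.6. The cycling markers were those on which the rule left barcodes out.

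Levels were also read across cells graded by their chemokine content. Inhba-high cells were split into those with 0 UMIs of the pair, those with 1, and members with under 3, 3 to 10, and 10 or more per 10000 UMIs. Between the first and the last of these groups, Nfkbia went from 392 to 1210 UPM in Fosl2F/F replicate 1, from 829 to 1289 in replicate 2, from 810.3 to 1434 in Fosl2cKO replicate 1 and from 365 to 1092 in replicate 2. Birc3 went from 12.5 to 57.2, from 38.0 to 83.4, from 28.2 to 134 and from 13.1 to 45.5. The steps between were not even, and in Fosl2F/F replicate 2 Nfkbia stood at 924 in cells with 1 UMI and at 821 in members under 3 per 10000. Cxcl10 ended at 183 to 215 in all 4 libraries, from 10.6 to 68.1 in cells with 0 UMIs. Inhba stayed between 4288 and 5278 in Fosl2F/F replicate 1 and between 2491 and 3461 in the other 3 libraries. Lhcgr went from 600.3 to 253 and from 255 to 219 in the Fosl2F/F libraries, from 52.9 to 136 in Fosl2cKO replicate 1 and from 119 to 101 in Fosl2cKO replicate 2, so its direction differed between libraries. The groups were cut on the chemokines and differ in depth, with median UMIs per cell of 9115.5 to 13815 in Fosl2F/F replicate 1, 3389 to 10869 in Fosl2F/F replicate 2, 10879.5 to 17621 in Fosl2cKO replicate 1 and 14234.5 to 16821 in Fosl2cKO replicate 2, in each library lowest in cells with 0 UMIs and highest in members under 3 per 10000. These levels are therefore a description.

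**Figure D3:**
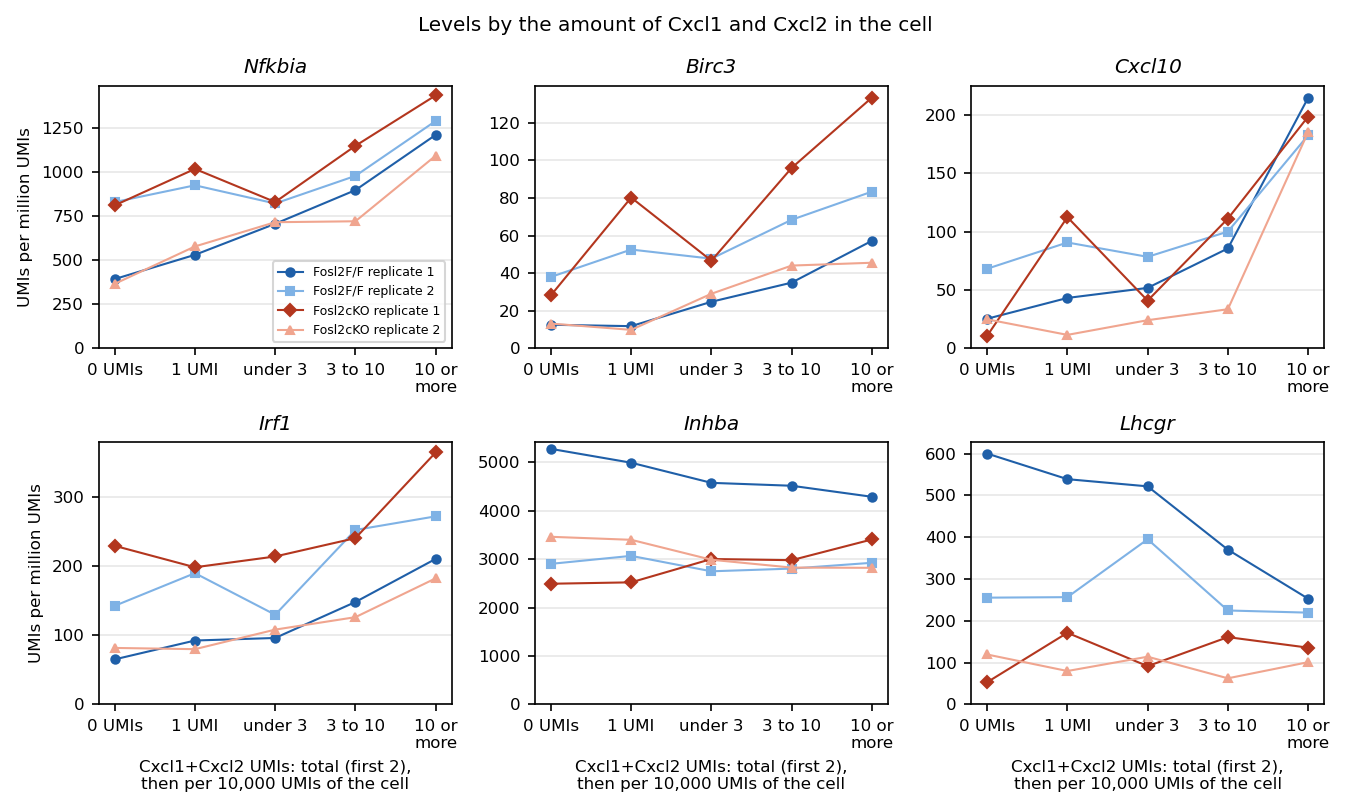
Levels of 6 genes in Inhba-high cells grouped by their Cxcl1 and Cxcl2 UMIs, as UMIs per 1000000 UMIs (UPM), with 1 line per library. Nfkbia, Birc3, Cxcl10 and Irf1 were highest in the group with 10 or more chemokine UMIs per 10000 in every library, and the smallest group holds 15 cells.

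The members were then compared between the conditions. The targeted gene came first: Fosl2 stood at 211 and 205 CPM in the members of the Fosl2F/F libraries and at 287 and 138 in those labelled Fosl2cKO (log2 fold change 0.04 ± 0.32). The libraries labelled Fosl2cKO lay on either side of both Fosl2F/F libraries, and the difference was -0.584 without Fosl2cKO replicate 1, so its 3′ tags did not check the labels. Whether these tags fall within the floxed exons was not analysed here. Plb1, which lies 74865 bases beyond the end of Fosl2 on chromosome 5, had 0 and 1 UMIs in the members of the Fosl2F/F libraries and 6978 and 1564 in those labelled Fosl2cKO, so the libraries did separate by label.

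The share of Inhba-high cells that met the chemokine criterion differed more within each condition than between them. Before thinning it was 46.1% (Wilson 95% interval 43.8 to 48.3) and 62.2% (59.6 to 64.7) with Fosl2F/F, and 83.8% (78.9 to 87.8) and 54.0% (48.5 to 59.4) in the libraries labelled Fosl2cKO, intervals that cover counting error only. Deep libraries detect more UMIs per cell, so each cell was thinned to 2000 UMIs, which left out 121, 107, 6 and 6 shallower cells. The earlier exclusion by markers used all UMIs of a barcode, so thinning did not correct that step for depth. The expected share with 2 or more chemokine UMIs was then 18.6% and 39.8% against 45.4% and 17.6%. The means were 29.2% ± 15 and 31.5% ± 19.7 (SD, 2 libraries each) and their difference was smaller than the spread within each condition (two-sided exact permutation test, p = 1.0, where 2 libraries against 2 cannot go below 0.33). In T and NK cells the same thinned share was 0.886% to 13.2%, the highest from 15 cells of Fosl2F/F replicate 2. Their UMIs of the pair were mostly Cxcl2 except in Fosl2cKO replicate 1, with ratios of Cxcl1 to Cxcl2 of 0.121, 0.109, 1.18 and 0.013. In other granulosa cells the thinned share was 6.69%, 11.4%, 15.5% and 11.8%.

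**Figure D4:**
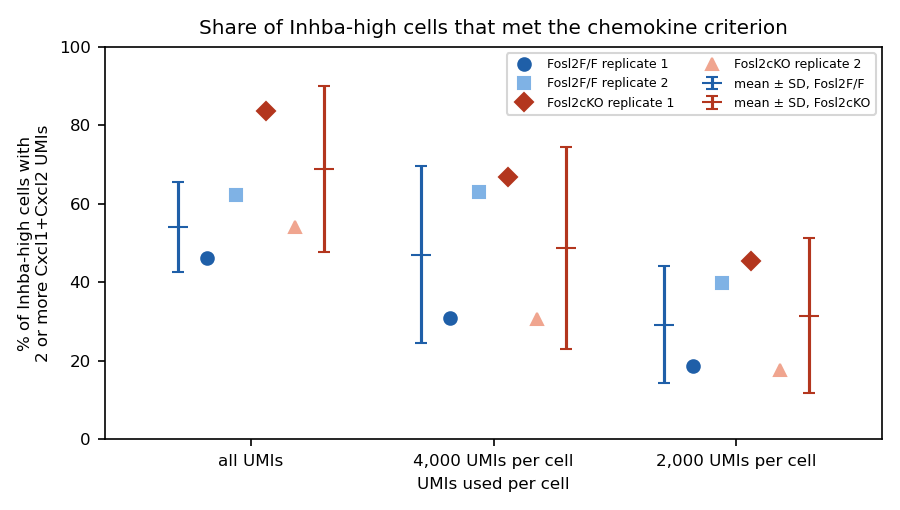
Percent of Inhba-high cells with 2 or more Cxcl1 and Cxcl2 UMIs, from all UMIs of the cell and at 4000 and 2000 UMIs per cell, with 1 point per library and the mean with its SD (n = 2) for each condition. At every depth 1 library of each condition is high and the other is low, and the ranges of the conditions overlap.

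Chemokine levels over all Inhba-high cells, where the choice of cells did not use them, were tested across all genes. Cxcl1 stood at 309 and 525 CPM with Fosl2F/F and at 624 and 285 in those labelled Fosl2cKO (log2 fold change 0.13 ± 0.40, edgeR adjusted p = 0.999). Cxcl2 stood at 168 and 309.8 against 353 and 116 (-0.03 ± 0.50, edgeR adjusted p = 0.999). Nfkbia over the same cells stood at 715 and 1035 CPM against 1158 and 651 (0.05 ± 0.32), so it too varied more within each condition than between them. Without Fosl2F/F replicate 1 or Fosl2cKO replicate 1 the Cxcl1 difference changed sign, to -0.183 and -0.542, and without Fosl2F/F replicate 2 or Fosl2cKO replicate 2 the Cxcl2 difference did, to 0.495 and 0.569.

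Few other genes differed between the conditions. In the members 4 of 12153 genes passed (0.0329%), and over all Inhba-high cells 3 of 12756 (0.0235%). Beside Plb1, Igfbp2, which binds insulin-like growth factors, was higher in the libraries labelled Fosl2cKO, at 85.6 and 63.2 CPM in the members against 16.2 and 15.8 (log2 fold change 2.22 ± 0.25, edgeR adjusted p = 0.0618). Sfrp4, a secreted inhibitor of Wnt signalling, was lower, at 8.76 and 7.51 CPM against 57.2 and 109 (-3.33 ± 0.37, edgeR adjusted p = 0.0618). Rgs6, a regulator of G protein signalling, was lower at 1.29 and 1.02 CPM against 13.2 and 15.8 (-3.60 ± 0.45, edgeR adjusted p = 0.0827), and is named after its values were seen. Beside these falls, tested markers of other cell types also had negative median log2 differences between the same members, and none passed. The medians were -3.66 (3 epithelial), -1.55 (2 oocyte), -1.03 (4 endothelial), -1.0 (2 pericyte) and -0.76 (5 theca). Others were -0.72 (7 stromal), -0.54 (4 cycling), -0.39 (1 T and NK) and -0.32 (9 myeloid). The cycling, stromal and myeloid lists hold the markers on which the rule left barcodes out. That limit weighs more on deeper cells, and the members of Fosl2F/F replicate 2 were the shallowest, at a median of 5001 UMIs. The cycling, stromal and myeloid medians are therefore only a description. Summed epithelial markers stood at 33.6 and 16.9 UPM with Fosl2F/F and at 12.9 and 3.75 in the libraries labelled Fosl2cKO, and the part of such RNA in the falls was not tested. Igfbp2 and Rgs6 no longer passed without either Fosl2F/F replicate, at 2.21 to 2.25 and -3.70 to -3.46, and Sfrp4 and Rgs6 did not pass with doublets and hemoglobin-rich barcodes removed together, at -2.59 and -3.23. Igfbp2 and Sfrp4 also passed over all Inhba-high cells, at 2.28 and -3.34. None of the 18 tested NF-kB components and none of the 22 immediate early genes passed in the members, with medians of 0.12 and 0.002 beside -0.01 over all genes. Lhcgr stood at 402 and 234 CPM against 139 and 88.1 and did not pass (-1.48 ± 0.33, edgeR adjusted p = 0.388). It passed at about the same fold with DESeq2 (-1.47, adjusted p = 0.00518) and in edgeR without the filter on low counts (-1.51, adjusted p = 2.09e-06) or without Fosl2cKO replicate 1 (-1.85, adjusted p = 0.00569), while the other leave-outs gave adjusted p-values of 0.14 to 0.956. The number of calls depended on single libraries, since 215 genes passed without Fosl2cKO replicate 1 and 111 without Fosl2cKO replicate 2.

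Finally, the effect of the condition was compared between members and comparison cells as an interaction. Of 12412 genes 3 passed (0.0242%), Spp1, Kcnip4 and Cemip, and none of them was a chemokine or an NF-kB gene. Nfkbia differed by 0.06 ± 0.21 between the 2 kinds of cell in its condition effect and did not pass. They are named after their values were seen and draw on the 28 comparison cells of Fosl2cKO replicate 1, without which the Spp1 difference changed sign, to 2.79, the Cemip difference moved to -1.50 and no longer passed, and the Kcnip4 difference was 2.78 and passed. Cemip was also lost with doublets and hemoglobin-rich barcodes removed together (-3.16).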

How the data were processed

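Whole ovaries were profiled in 4 libraries with the 10x Genomics 3′ kit. The authors deposited a matrix of whole-number UMI counts (genes by barcodes) for every library, made with Cell Ranger on GRCm38 (mm10) per the labels, which also name Seurat 4.1.0. The study's methods name CellBender, which subtracts free RNA, and DoubletFinder, which removes doublets, but whether the deposited matrices precede or follow these steps is not given in the sources used here. Barcodes scored as doublets by Scrublet (scanpy 1.11.5, the top 0.8% per 1000 barcodes) were kept in the main results and, together with barcodes at 0.1% hemoglobin UMIs or more, removed in an alternative. The counts gave 120327227 to 148836173 UMIs per library, and 0 columns were left out. Pairs of libraries shared 12 to 49 barcodes past the filters and 0 among the members. Fosl2F/F replicate 2 stood apart in depth, with a median of 3970 UMIs over its 24320 barcodes past the filters, against 11380 to 12885 in the other libraries.

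The members, gene lists and tests were chosen with earlier results of these data known. UMIs were summed per library and kind of cell, filtered with filterByExpr, scaled by TMM and tested with edgeR 4.0.16 (R 4.3.3), with a library block between kinds of cell and none between conditions. The 15 largest rises and 10 largest falls that passed in the same direction in 4 libraries, averaging 20 CPM or more, were named, as were listed genes. The rule for the conditions, 5 rises and 5 falls without overlap, left fewer. Other granulosa, myeloid, stromal, endothelial and T/NK cells were barcodes with 2 or more of their own 4 or 5 markers detected and under 2 of each other class. Thinned shares are hypergeometric expectations. Of 32285 genes, 32158 had an identifier in GENCODE M21. Promoters are from RefSeq (GRCm38.p6). No batch was given and the replicate numbers are not said to pair the mice, so no replicate block was used. The deviations of Fosl2F/F replicate 1 and Fosl2cKO replicate 1 from their group means had r = -0.135 across 6924 genes. With 2 libraries per group this value cannot exclude a shared batch. The fits were tested on simulated counts. Alternatives included DESeq2 1.42.0, other filters, and each library left out.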

Additional observations from a re-analysis of the deposited data

Results flagged for a closer look

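In 55 named genes, the ratio of chemokine cells to comparison cells was looked at for 1 library far from the other 3. Chance puts about 1 group in 20 there, and 2 genes were found. Fosl2cKO replicate 1 stood apart in both. Its log2 ratio was 0.343 for Zfp36, below the other libraries, and 0.700 for Dnajb1, above them. That library had 28 comparison cells.

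In 3 genes the effect of the condition differed between chemokine cells and comparison cells by an interaction term in edgeR. For Spp1, which encodes osteopontin, the difference of the log2 effects was -7.21 (adjusted p = 2.35e-06). It came from 387 CPM in the comparison cells of Fosl2cKO replicate 1, against 0 to 10.0 CPM in the other 7 sums. For Kcnip4 it was 3.06 (adjusted p = 0.00348), with 89.7 and 30.3 CPM in the chemokine cells labelled Fosl2cKO against 16.8 and 9.41 in their comparison cells, and with 10.8 and 7.94 against 19.4 and 27.4 in the Fosl2F/F libraries. For Cemip it was -3.62 (adjusted p = 0.0343), with 6.76 and 3.1 CPM against 80.8 and 5.07 in the libraries labelled Fosl2cKO and 6.87 and 55.3 against 4.42 and 29.9 in the Fosl2F/F libraries. Without Fosl2cKO replicate 1 it was -1.50 (adjusted p = 0.932), and with doublets and hemoglobin-rich barcodes removed together -3.16 (adjusted p = 0.709). Spp1 did not pass with DESeq2 (-6.00) and was 2.79 without that library, whereas Kcnip4 passed in every alternative run.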

How the results depend on the processing

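Beside the 252 genes that passed between chemokine and comparison cells (201 higher, 51 lower), DESeq2 gave 98 (94 higher, 4 lower), no filter on low counts 589, an adjusted p below 0.05 at any fold 142, a mitochondrial share under 5% 165 and leaving out 1 library 50 (without Fosl2F/F replicate 1) to 602 (without Fosl2cKO replicate 1). Without the library block none passed in edgeR (287 at an unadjusted p under 0.05). Of 55 named genes, 1 changed direction, Lhcgr at 0.010 by DESeq2. Many kept their direction but no longer passed, 19 with DESeq2, 32 without Fosl2F/F replicate 1 and 23 without Fosl2cKO replicate 2. Those lost with DESeq2 included Relb, Tnip1, Ripk1, Dusp1, Bcl2l11, Acvr2a, Foxo3, Sparcl1, Acta2 and Cep162. Cxcl10, Birc3, Gm20186, Grk5, Nfkbia, Irf1, Mex3a, Angptl1, Noct, Sertad2 and Man1a passed in 14 of 15 alternatives. In the members, 4 genes passed between conditions, and 7 did with RLE factors, 63 with DESeq2, 324 without the filter, 1 at an adjusted p under 0.05, 1 at a mitochondrial share under 5%, 9 with at least 5 chemokine UMIs, and 4 to 215 with 1 library left out. Over all Inhba-high cells the 3 became 97 with DESeq2, 392 without the filter, 1 at an adjusted p under 0.05, 1 at a mitochondrial share under 5%, and 0 to 166 with 1 library left out (without Fosl2F/F replicate 2, 640 had an unadjusted p under 0.05). For the interaction, the 3 became 23 without the filter and 6 to 195 with 1 library left out, and Spp1 ranged from -8.23 without Fosl2F/F replicate 1 to 2.79 without Fosl2cKO replicate 1.

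The replicate block gave 32 genes in the members and 12 over all Inhba-high cells, and the crossed pairing, chosen after seeing the data, gave 1 and 4. Lhcgr passed in the members with the replicate block (-1.47, adjusted p = 0.0619) and not with the crossed pairing (-1.46, adjusted p = 0.649). The log2 ratio of shares, 0.108, became -0.338 without Fosl2F/F replicate 1, -0.736 without Fosl2cKO replicate 1 and ranged up to 0.757 (without Fosl2F/F replicate 2) with 1 library left out, and paired by replicate block it was 0.052. Fosl2 in the members ranged from -0.584 to 0.467 without Fosl2cKO replicate 1 or 2, and was -0.053 with the replicate block and -0.055 with the crossed pairing. With 1 library left out, Cxcl1 over all Inhba-high cells ranged from -0.542 to 0.587 and Cxcl2 from -1.04 to 0.569, and Cxcl2 was 0.057 with Inhba at 20 per 10000. The cause of these changes was not tested. The conditions had 2 libraries each, and the size of effect that this can detect is not given here.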
